A study of Mus musculus with 29 samples.

Results

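The fibrillar and fibril-associated (FACIT) collagen genes are described here in mesenchymal cells sorted from the common bile duct of mice. The 10 genes were chosen by symbol from the deposited count tables, which hold 55401 gene entries: the fibrillar collagen genes Col1a1, Col1a2, Col3a1, Col5a1, Col5a2, Col5a3 and Col11a1, and the FACIT genes Col12a1, Col14a1 and Col16a1. All 10 were found in each table. RNA-seq was done in 29 libraries of 9 groups, each from about 1000 sorted cells of 1 animal.

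In 6 libraries the cells came from Gli1:CreERT2 mice, 3 from ducts taken 4 days after bile duct ligation (BDL) and 3 from uninjured ducts. In the other 23 they came from Pdgfra:CreERT2 mice: 3 SmoM2, 4 SmoFF, 3 Ctnnb1FF, 2 Gli2FF, 2 Gli3FF and 4 Gli2FFGli3FF libraries, and 5 wild type libraries. All animals, controls included, also carry the Rosa26 lox-STOP-lox tdTomato reporter. Gli1 and Pdgfra drive the tamoxifen-inducible Cre, so an allele is altered only in cells that express the driver. FF is taken here, by common usage, to mean that both copies of a gene are flanked by loxP sites and are cut out by Cre, and SmoM2 to be a constitutively active Smo. Smo is the membrane transducer of Hedgehog signals, Gli2 and Gli3 are its transcription factors, and Ctnnb1 encodes β-catenin of the Wnt pathway. No injury is named for the Pdgfra animals, no sham operation for the Gli1 animals, and no ages are given.

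Collagen is the main protein of the fibrous tissue that mesenchymal cells lay down around bile ducts, and its excess is fibrosis. Type I collagen, the bulk of most fibrils, is assembled from a pair of α1 chains (Col1a1) and a single α2 chain (Col1a2), and type III (Col3a1) from α1 chains alone. Type V chains (Col5a1, Col5a2, Col5a3) start fibrils and limit their width, and the α1 chain of type XI (Col11a1), best known from cartilage, has a like role and can join type V chains. Types XII, XIV and XVI (Col12a1, Col14a1, Col16a1) form no fibrils of their own but sit on or beside them.

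The genes lie on 8 chromosomes of mm10. Col3a1 (chr1:45311538-45349706, plus strand) and Col5a2 (chr1:45374321-45503282, minus strand) are neighbours, whereas Col1a1 (chr11:94936224-94953042) and Col1a2 (chr6:4504814-4541544) lie apart although their chains form one molecule. Col11a1 is at chr3:114030540-114220718, Col5a1 at chr2:27886425-28039514 and Col12a1 at chr9:79598991-79718831. Col5a1, Col5a3, Col12a1 and Col14a1 overlap genes on the opposite strand. Whether the counting used strand is not given in the sources used here, so reads of those partners could not be told apart from theirs.

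Upstream sequences were shown for 4 genes that were all higher after ligation but started from very different levels, from Col3a1, among the highest, to Col11a1, close to 0. RefSeq promoter entries (GRCm38.p6) matched 6 of the 10 genes, Col1a2, Col3a1, Col5a1, Col5a3, Col11a1 and Col16a1. Each line gives the 250 bases before the RefSeq start, 5′ to 3′ on the gene's strand, and capitals mark matches to CCAAT (the CCAAT box), TATAAA (the TATA box) or GGGCGG (the GC box), searched on both strands. The windows of Col3a1, Col5a1 and Col11a1 end at the base before the gene span. For Col1a2 the RefSeq start and the whole window lie inside the gene span given above.
Col1a2, chr6:4505368-4505617, plus strand: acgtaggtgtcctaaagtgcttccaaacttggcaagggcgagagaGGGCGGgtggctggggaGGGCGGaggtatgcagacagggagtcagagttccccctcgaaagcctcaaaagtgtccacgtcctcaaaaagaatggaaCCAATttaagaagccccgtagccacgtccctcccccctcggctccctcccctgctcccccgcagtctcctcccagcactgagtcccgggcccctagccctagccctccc
Col3a1, chr1:45311288-45311537, plus strand: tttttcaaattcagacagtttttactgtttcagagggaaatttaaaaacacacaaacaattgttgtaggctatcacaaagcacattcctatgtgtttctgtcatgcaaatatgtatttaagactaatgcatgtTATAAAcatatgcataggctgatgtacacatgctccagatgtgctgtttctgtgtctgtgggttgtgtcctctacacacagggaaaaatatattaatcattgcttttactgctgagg
Col5a1, chr2:27886175-27886424, plus strand: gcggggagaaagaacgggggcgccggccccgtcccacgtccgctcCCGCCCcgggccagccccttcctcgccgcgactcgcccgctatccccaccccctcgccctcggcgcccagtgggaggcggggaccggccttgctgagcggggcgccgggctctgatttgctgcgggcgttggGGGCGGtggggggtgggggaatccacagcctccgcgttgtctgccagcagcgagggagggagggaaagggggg
Col11a1, chr3:114030290-114030539, plus strand: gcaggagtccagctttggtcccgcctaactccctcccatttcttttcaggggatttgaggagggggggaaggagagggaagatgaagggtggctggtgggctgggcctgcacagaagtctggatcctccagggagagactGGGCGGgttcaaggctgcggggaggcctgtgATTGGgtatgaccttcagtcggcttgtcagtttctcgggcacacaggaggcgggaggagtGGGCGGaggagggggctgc

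Counted back from the base before the start, which is -1, the CCAAT match of Col1a2 begins at -109, with GC boxes at -205 and -188. Col3a1 has a TATAAA match at -117 and no GC box in its window. Col5a1 has GC boxes at -205 and -73, and Col11a1 has GC boxes at -110 and -19 with a CCAAT match, read as ATTGG, at -79. Such matches are common: over 32851 mouse promoter windows of this length, 33.8% held CCAAT, 12.4% TATAAA and 32.7% GGGCGG. The letters GACCACCCA, a core sequence bound by Gli factors, were in none of the 6 windows and in 0.225% of all windows.

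Values are read counts scaled for library size, as CPM with TMM factors, within the Gli1 libraries and within the Pdgfra libraries separately, so levels are not set against each other between the 2 Cre lines. Differences are log2 fold changes from the quasi-likelihood test of edgeR, with p adjusted by Benjamini-Hochberg over every gene tested (17150 in the Gli1 libraries, 24383 in the Pdgfra libraries), and a gene is called higher or lower at an adjusted p under 0.05. Total counts lay between 15021796 and 38301189 per library. A single ribosomal RNA locus took 2.37 to 3.87% of the counts in Gli1 libraries and 8.56 to 50.03% in Pdgfra libraries. The 10 genes took 7.43 ± 0.0708% of the counts outside that locus after ligation and 1.45 ± 0.201% in uninjured ducts (SD, n = 3 each). In the Pdgfra line that share was 3.11 ± 0.389% in SmoM2, 1.14 ± 0.330% in SmoFF, 1.21 ± 0.125% in Ctnnb1FF, 2.21 ± 0.204% in Gli2FF, 3.01 ± 0.370% in Gli3FF, 1.79 ± 0.148% in Gli2FFGli3FF and 2.25 ± 0.392% in wild type.

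Some libraries stood apart from others of their group. Wild type replicates 4 and 5 had 3856 and 3664 detected pseudogenes, and replicates 1 to 3 had 4580 to 4792, a difference the labels do not explain. SmoFF libraries had 3241 to 3734 and SmoM2 libraries 4692 to 5376. The free-text description of wild type replicate 5 also names SmoFF, unlike its title and genotype label, and the library was kept as wild type. Xist was under 5 CPM in all 5 wild type libraries, 3 of 3 SmoM2, 2 of 4 SmoFF, 0 of 3 Ctnnb1FF, 1 of 2 Gli2FF, 1 of 2 Gli3FF and 1 of 4 Gli2FFGli3FF libraries, so sex is not balanced between the groups. Where a call ends among wild type 1 to 3, wild type 4 and 5 or low-Xist libraries, this is given beside it. Where a group kept only 1 low-Xist library, log2 changes alone are given.

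The targeted genes were checked first. Smo was at 7.88 ± 0.918 CPM in SmoFF (n = 4) and 29.7 ± 5.96 CPM in wild type (n = 5), and was called lower. Gli3 was called lower in Gli3FF, and both Gli2 and Gli3 were called lower in Gli2FFGli3FF, at 4.84 ± 2.23 CPM for Gli2 and 5.81 ± 2.07 CPM for Gli3 in Gli2FFGli3FF against 17.7 ± 3.23 and 36.4 ± 6.31 CPM in wild type. Ctnnb1 was at 43.3 ± 5.00 CPM in Ctnnb1FF and 58.6 ± 5.13 CPM in wild type (adjusted p = 0.108), and Gli2 at 9.86 ± 4.16 CPM in Gli2FF and 17.7 ± 3.23 CPM in wild type (adjusted p = 0.398), so counts over the whole gene did not mark these 2 deletions. In SmoM2 the Hedgehog target Ptch1 was at 302 ± 73.0 CPM and in wild type at 30.8 ± 6.55 CPM. In SmoFF neither Ptch1 nor Hhip, another Hedgehog target, was called. Of the 6 genes checked there (Smo, Ctnnb1, Gli2, Gli3, Ptch1 and Hhip), 1, Smo, was called lower and 0 higher. Fibroblast markers were detected in every group, with all 10 of the list above 0, in sums of 10000 to 41900 CPM per library.

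Ligation was compared with uninjured ducts to ask which collagens differ in Gli1-lineage cells of an obstructed duct. All 10 genes passed the filter on low counts. Of these, 8 were higher and 1, Col14a1, was lower after ligation, where 13.6% of all genes tested were called, 7.77% higher and 5.8% lower. The median log2 change of the 10 genes was 2.40, against 0.069 over all genes tested. Col11a1 passed that filter only through its counts after ligation and so had to differ. In bulk RNA a rise per cell and a larger share of collagen-making cells in the sort cannot be told apart.

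Col1a1 had 41418, 31050 and 34859 CPM after ligation, against 3648, 4165 and 3229 CPM in uninjured ducts. Every ligated library lay far above every uninjured one. The log2 change was 3.28 (SE 0.19, adjusted p = 0.000653). Col1a2, the partner chain, had 15997, 17623 and 15845 CPM after ligation, against 3020, 3524 and 2725 CPM in uninjured ducts. The groups lay far apart, and Col1a2 was 5.34-fold higher after ligation (log2 2.42, SE 0.16, adjusted p = 0.000727).

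Col3a1 had 10491, 15245 and 14595 CPM after ligation, against 5353, 5834 and 3911 CPM in uninjured ducts. It too lay higher in each ligated library, but by less: 2.67-fold (log2 1.42, SE 0.22, adjusted p = 0.0137). Of the fibrillar genes called higher after ligation, it alone lost its call when a library was left out. Without BDL replicate 2 it had adjusted p = 0.0806, and without BDL replicate 3 adjusted p = 0.0909, with log2 changes of 1.32 and 1.36.

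Of the type V genes, Col5a1 had 1804, 2694 and 2309 CPM after ligation, against 239, 253 and 219 CPM in uninjured ducts (log2 3.26, SE 0.20, adjusted p = 0.000727). Col5a2 had 1886, 1808 and 1828 CPM after ligation, against 385, 381 and 286 CPM in uninjured ducts (log2 2.39, SE 0.17, adjusted p = 0.00104). The 2 chains thus rose by different factors, 9.57-fold and 5.25-fold. Col5a3, a chain with a narrower tissue range, had 30.8, 50.0 and 82.5 CPM after ligation, against 67.5, 72.3 and 74.9 CPM in uninjured ducts. Its groups overlapped, and it was not called (adjusted p = 0.567).

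Col11a1 was nearly absent from uninjured ducts. It had 6684, 7413 and 6884 counts after ligation (347, 307 and 259.6 CPM), against 30, 1 and 1 counts in uninjured ducts (1.48, 0.0439 and 0.0509 CPM). Uninjured replicate 1 thus holds nearly all of the uninjured counts and sets the size of the change: the fitted log2 change was 9.19 (SE 1.09, adjusted p = 0.00559), and 12.50 (adjusted p = 0.00202) without that library. In the 23 Pdgfra libraries, none of them from ligated ducts, Col11a1 had between 0 and 83 counts. The highest was Ctnnb1FF replicate 2 at 3.25 CPM, while the other 2 Ctnnb1FF libraries had 0 counts.

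The FACIT genes went in both directions. Col12a1, whose product links fibrils to their surroundings in tendon and other tissue under tension, had 1500.5, 1202 and 1188 CPM after ligation, against 36.9, 45.6 and 62.3 CPM in uninjured ducts. The groups lay far apart, and the change was 26.9-fold (log2 4.75, SE 0.27, adjusted p = 0.000653). Col14a1, whose product binds fibrils through decorin, had 580.5, 693 and 529 CPM after ligation, against 1320, 1851 and 1504 CPM in uninjured ducts. All ligated libraries were lower, by log2 -1.38 (SE 0.19, adjusted p = 0.00903), although without BDL replicate 3 the call was lost (log2 -1.28, adjusted p = 0.0713). Col16a1 had 128, 155 and 135 CPM after ligation, against 59.1, 57.7 and 53.9 CPM in uninjured ducts, a rise of 2.44-fold (log2 1.29, SE 0.16, adjusted p = 0.00599).

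The order of the levels therefore differed. By mean CPM per kilobase of mRNA, Col1a1 led after ligation with 6033, followed by Col1a2 with 3083 and Col3a1 with 2416. In uninjured ducts Col3a1 led with 904.5, then Col1a1 with 621 and Col1a2 with 578, and the last pair lay within a standard deviation of each other. Col14a1 stood at 106 CPM per kilobase after ligation, below Col5a2 at 278 and Col5a1 at 269.9 and close to Col12a1 at 113, whereas in uninjured ducts it was 4th at 274. Col11a1 was at 39.75 CPM per kilobase after ligation, above Col16a1 at 26.7 and Col5a3 at 8.90, and was the lowest of the 10 genes in the other 8 groups.

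**Figure D1:**
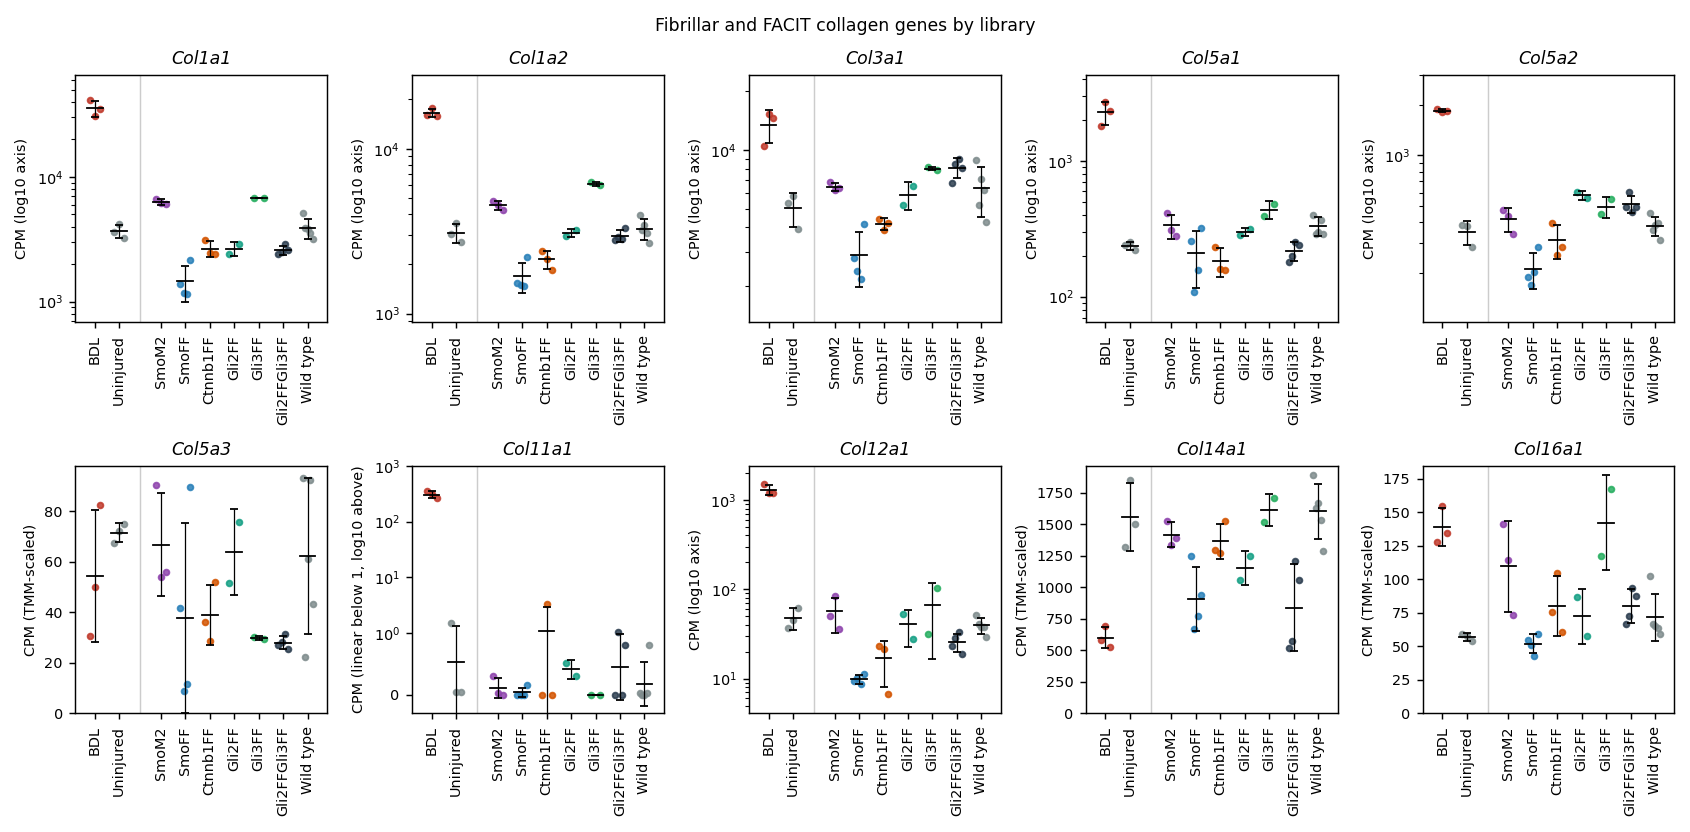
Levels of the 10 collagen genes in each library, in TMM-scaled CPM; points are libraries, horizontal lines group means and bars 1 SD. Axes are log10 for 6 genes, linear for Col5a3, Col14a1 and Col16a1, and linear below 1 for Col11a1. The grey line parts the Gli1 line (BDL and uninjured) from the Pdgfra line, which were scaled separately. After ligation Col1a1 lay between 31050 and 41418 CPM, against 3229 to 4165 CPM in uninjured ducts, and Col14a1 lay lower than in uninjured ducts.

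Markers of other cells moved with the ligation comparison. The 10 smooth muscle and pericyte markers summed to 4040 to 4770 CPM after ligation and 129 to 176 CPM in uninjured ducts, with 4 called higher and none at 0 counts, led by the smooth muscle actin Acta2. The 10 mesothelial markers summed to 68.6 to 104 CPM after ligation and 365 to 1120 CPM in uninjured ducts, with 8 called lower. The fibroblast markers summed to 10000 to 10400 CPM after ligation and 33100 to 41900 CPM in uninjured ducts (2 higher and 5 lower of 10). Their part in the collagen changes was not tested. The Hedgehog target Ptch1 was at 56.2 ± 21.7 CPM after ligation and 53.6 ± 7.60 CPM in uninjured ducts (adjusted p = 0.929).

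The other genes of the collagen pathway were read by list. Of 20 tested genes of basement membrane, beaded filament and other collagens, 8 were higher and 1 lower after ligation, with a median of 0.916. The basement membrane chain Col4a1 averaged 1537 ± 303 CPM after ligation and 223 ± 7.62 CPM in uninjured ducts, Col4a2 averaged 737 ± 199 against 109 ± 12.1 CPM, and the beaded filament chain Col6a3 averaged 895 ± 338 against 245 ± 48.1 CPM. Of 32 genes of collagen synthesis and processing, 10 were higher and 1 lower (median 0.609). The crosslinking enzyme Lox was at 1285 ± 126 CPM after ligation and 122.5 ± 10.6 CPM in uninjured ducts, the lysyl hydroxylase Plod2 at 482 ± 122 against 86.0 ± 9.18 CPM, and the crosslinking enzyme Loxl2 at 300.0 ± 69.2 against 62.5 ± 7.57 CPM. The one gene that was lower was Pcolce2, an enhancer of procollagen cleavage, at 28.8 ± 6.30 CPM after ligation and 660.0 ± 180 CPM in uninjured ducts.

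Of 18 fibril-binding proteins, 3 were called higher and 8 lower (median -0.165). The small proteoglycans Dcn and Ogn averaged 3619 ± 206 and 59.9 ± 17.9 CPM after ligation, against 21230 ± 1922 and 1467 ± 292 CPM in uninjured ducts, and Dpt, dermatopontin, 398 ± 23.1 against 4433 ± 1129 CPM. Sparc, a collagen-binding matricellular protein, was among those higher, at 10720 ± 524 CPM after ligation and 3221 ± 488 CPM in uninjured ducts. Dcn and Dpt are also on the fibroblast marker list. Of 9 collagen receptor genes, the integrin genes Itgb1 and Itga1 were higher, and the integrin gene Itga11 and the receptor kinase gene Ddr2 were lower. Among 4 tested genes of other fibrillar and FACIT collagens none was called by edgeR. That count was 0 to 2 over the other settings, DESeq2 and limma voom included.

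In the SmoFF comparison the question is what loss of the Hedgehog transducer changes in Pdgfra-lineage cells without ligation. All 10 genes passed the filter in the Pdgfra libraries, and 5 were called lower and none higher: Col1a1, Col1a2, Col3a1, Col5a2 and Col12a1. Over all genes 1.55% were called, 1.26% lower and 0.287% higher. The median log2 change of the 10 genes was -0.907, against 0.018 over all genes tested. The 6 comparisons with wild type share the same 5 wild type libraries.

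Col1a1 had 1397, 1163, 1142 and 2144 CPM in SmoFF, against 5123, 3861, 3836, 3541 and 3185 CPM in wild type. Every SmoFF library was below every wild type library, SmoFF replicate 4 being the highest of its group, and the log2 change was -1.42 (SE 0.18, adjusted p = 0.000162). Col1a2 had 1537, 1500.4, 1479.6 and 2204 CPM in SmoFF, against 3955, 3207, 3444, 3071 and 2698 CPM in wild type (log2 -0.96, SE 0.15, adjusted p = 0.00133). The α1 chain was thus 2.67-fold lower and the α2 chain 1.95-fold lower.

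Col3a1 had 2775, 2378, 2176 and 4184 CPM in SmoFF, against 8902, 5222, 7124, 6211 and 4244 CPM in wild type (log2 -1.14, SE 0.20, adjusted p = 0.00442). The highest SmoFF library nearly reached the lowest wild type library. Col5a2 had 189.6, 169.9, 201 and 286 CPM in SmoFF, against 451, 361, 387, 394 and 315 CPM in wild type (log2 -0.85, SE 0.18, adjusted p = 0.0149). With only the 2 compared groups in the fit, neither Col3a1 (adjusted p = 0.0672) nor Col5a2 (adjusted p = 0.0608) was called. The Col5a2 call was also lost without wild type replicate 1 or SmoFF replicate 1, 2 or 3 (adjusted p = 0.0517, 0.0543, 0.0592 and 0.0647) and among low-Xist libraries (0.0611).

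Col12a1, the FACIT gene that was highest after ligation relative to its control, had 9.32, 10.1, 8.72 and 11.4 CPM in SmoFF, against 51.4, 40.3, 38.2, 37.6 and 29.3 CPM in wild type. The SmoFF libraries were close to each other and all far below wild type (log2 -1.99, SE 0.36, adjusted p = 0.00622). Col14a1 had 1252, 667, 776 and 942 CPM in SmoFF, against 1893, 1632, 1667, 1534 and 1288 CPM in wild type. It was not called (log2 -0.82, adjusted p = 0.0625), but was called without wild type replicate 5 (adjusted p = 0.0389) or SmoFF replicate 1 (adjusted p = 0.042) and against wild type 1 to 3 (adjusted p = 0.0364). Among low-Xist libraries alone, Col14a1 was called lower (log2 -1.14, adjusted p = 0.0293), as were Col5a1 (log2 -1.30, adjusted p = 0.0342) and Col5a3 (log2 -2.60, adjusted p = 0.038).

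Col5a1 (108 to 317 CPM in SmoFF, 288 to 402 CPM in wild type), Col5a3 (8.76 to 89.8 against 22.3 to 93.3 CPM) and Col16a1 (42.5 to 59.6 against 59.1 to 103 CPM) were not called, with adjusted p = 0.184, 0.558 and 0.337. With wild type 4 and 5 as the only controls, Col1a1 was still called lower (log2 -1.20, adjusted p = 0.0354). The other 4 kept their direction but were not called, with log2 changes of -0.78 for Col1a2 (adjusted p = 0.203), -0.86 for Col3a1 (adjusted p = 0.422), -0.74 for Col5a2 (adjusted p = 0.707) and -1.76 for Col12a1 (adjusted p = 0.4).

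The mesothelial markers summed to 613 to 1500 CPM in SmoFF and 175 to 459 CPM in wild type, with none of 10 called and none at 0 counts, and the fibroblast markers to 15800 to 20400 CPM in SmoFF and 23000 to 27900 CPM in wild type (2 lower, Lum and Col6a1, which are also on the pathway lists). Their part in the collagen differences was not tested. In the pathway lists 0 genes were higher. Lower were 3 of 24 other collagens (Col4a5, Col4a2 and Col6a1) and 2 of 20 fibril-binding proteins (the proteoglycans Bgn and Lum). Also lower were 2 of 34 synthesis and processing genes, the procollagen protease Adamts2 and Pcolce, an enhancer of procollagen cleavage. Bgn averaged 1210 ± 221 CPM in SmoFF and 2451 ± 347 CPM in wild type.

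Active Smo was set against wild type and against SmoFF. None of the 10 genes was called by edgeR in SmoM2 against wild type, where 0.205% of all genes were called, 0.127% higher and 0.0779% lower. At an unadjusted p under 0.05 there were 3, Col1a1, Col1a2 and Col16a1, each higher, where 1864 of all 24383 genes tested were under it. DESeq2 called 1, where it called 287 of 39351 genes, and limma voom called 3, where it called 1456 of 24383. Col1a1 had 6701, 6210 and 6061 CPM in SmoM2, against 3185 to 5123 CPM in wild type (median 3836). Each SmoM2 library was above all wild type libraries, with a log2 change of 0.69 (SE 0.19, adjusted p = 0.163). Col1a2 had 4844, 4566 and 4242 CPM in SmoM2, against 2698 to 3955 CPM in wild type (log2 0.48, SE 0.16, adjusted p = 0.358). Col3a1 had 6808, 6193 and 6370 CPM in SmoM2, inside the wild type range of 4244 to 8902 CPM, and Col16a1 had 141, 114 and 73.5 CPM in SmoM2, against 59.1 to 103 CPM in wild type (log2 0.62, SE 0.24, adjusted p = 0.514). The basement membrane chain Col4a6 and the fibril-binding proteoglycan Fmod were the only genes of the collagen pathway lists called, both higher, at 32.2 ± 5.02 and 140 ± 38.1 CPM in SmoM2 against 7.90 ± 1.77 and 36.6 ± 4.83 CPM in wild type. Smooth muscle and pericyte markers summed to 321 to 339 CPM in SmoM2 and 85.3 to 118 CPM in wild type, with 1 of 10, Acta2, called higher and none at 0 counts, and their part was not tested.

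Between SmoM2 and SmoFF, 6 of the 10 genes were higher in SmoM2 and none lower, where 2.63% of all genes were called, 1.74% higher and 0.89% lower. The median log2 difference was 1.12, against 0 over all genes. Col1a1 was 4.33-fold higher in SmoM2 (log2 2.11, SE 0.20, adjusted p = 2.24e-06) and Col1a2 2.71-fold (log2 1.44, SE 0.17, adjusted p = 2.87e-05). Col3a1 differed by 1.17 (SE 0.22, adjusted p = 0.006) on the log2 scale, Col5a2 by 0.98 (SE 0.20, adjusted p = 0.00906) and Col16a1 by 1.08 (SE 0.25, adjusted p = 0.0219). Col12a1 had 49.9, 83.0 and 36.2 CPM in SmoM2, against 8.72 to 11.4 CPM in SmoFF, with no overlap (log2 2.51, SE 0.40, adjusted p = 0.00108). This comparison uses the same 4 SmoFF libraries as that of SmoFF with wild type. Detected pseudogenes, whose number also differed among the wild type libraries, were 4692 to 5376 in SmoM2 and 3241 to 3734 in SmoFF. That difference between the libraries cannot be told apart from genotype here.

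Col5a1 (281 to 410.1 CPM in SmoM2, 108 to 317 CPM in SmoFF) and Col14a1 (1332 to 1529 CPM in SmoM2, 667 to 1252 CPM in SmoFF) were not called between SmoM2 and SmoFF, with adjusted p = 0.21 and 0.198. Among low-Xist libraries both were called (adjusted p = 0.0223 and 0.0463), as was Col5a3 (adjusted p = 0.0228), and Col16a1 was not (adjusted p = 0.0803). The Col5a2 call was lost without SmoM2 replicate 1 or 2 (adjusted p = 0.0587 and 0.0535). The Col16a1 call was lost without SmoFF replicate 1, 2 or 3 (adjusted p = 0.0537, 0.057 and 0.0855) or SmoM2 replicate 1 or 2 (adjusted p = 0.156 and 0.0953). In the list of other collagens 4 of 24 were called, Col4a5, Col6a1, Col4a2 and Col4a6, all higher in SmoM2. Adamts2 and Pcolce of the 34 synthesis and processing genes were also higher in SmoM2, as were 5 of 20 fibril-binding proteins, led by Bgn at 3200 ± 676 CPM in SmoM2 and 1210 ± 221 CPM in SmoFF. Smooth muscle and pericyte markers summed to 321 to 339 CPM in SmoM2 and 64.4 to 137 CPM in SmoFF, with 2 of 10 called higher. Fibroblast markers summed to 19900 to 26300 CPM in SmoM2 and 15800 to 20400 CPM in SmoFF, with 4 of 10 called higher, Lum and Col6a1 of the pathway lists among them, and the part of both was not tested.

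**Figure D2:**
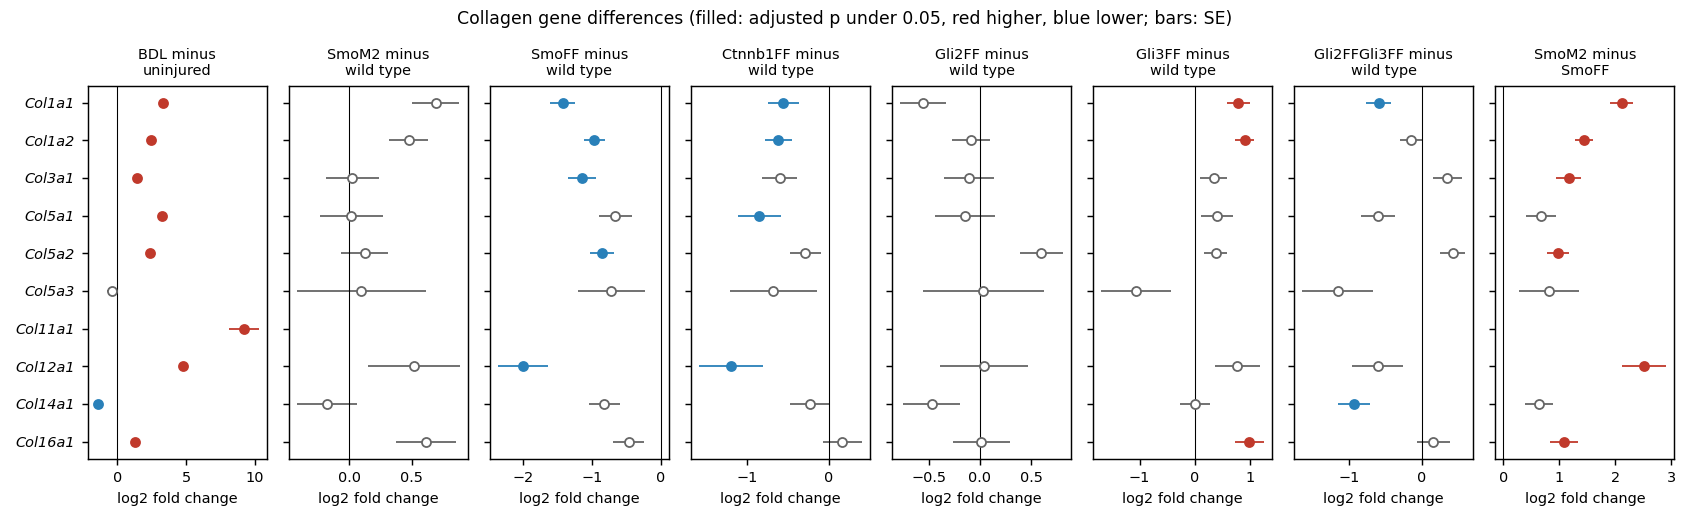
Log2 fold changes of the 10 genes in the 8 comparisons, first group minus second, from edgeR's quasi-likelihood fits. Bars are standard errors derived from the F statistic of the test, and each panel has its own axis. Filled points have an adjusted p under 0.05 (red higher, blue lower) and open points do not; Col11a1 is drawn only for ligation, since its counts were at or near 0 in most Pdgfra libraries. In SmoFF 5 points are filled on the lower side, and between SmoM2 and SmoFF 6 on the higher side.

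The Gli factors act below Smo, and their deletions were set against wild type, not against SmoFF. In Gli3FF 3 genes were higher than in wild type and none lower, where 4.45% of all genes were called, 2.09% higher and 2.36% lower, and the median log2 change was 0.392, against -0.22 over all genes. Col1a1 had 6757 and 6771 CPM in Gli3FF, above the wild type range of 3185 to 5123 CPM (log2 0.79, SE 0.21, adjusted p = 0.0321). Col1a2 had 6249.7 and 5999 CPM in Gli3FF, against 2698 to 3955 CPM in wild type (log2 0.90, SE 0.18, adjusted p = 0.00301). Col16a1 had 117 and 168 CPM in Gli3FF, against 59.1 to 103 CPM in wild type (log2 0.99, SE 0.27, adjusted p = 0.0325).

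The calls of Col1a1 and Col16a1 were close to the threshold. Against wild type 1 to 3 alone they had adjusted p = 0.173 and 0.154, and against wild type 4 and 5 alone 0.0504 and 0.0653. With the ribosomal RNA share as a covariate Col1a1 was not called either (adjusted p = 0.118), and Col16a1 was at the threshold (adjusted p = 0.05). Without Gli3FF replicate 1 none remained, and Col1a2 had adjusted p = 0.059. Without Gli3FF replicate 2, wild type replicate 2, 3, 4 or 5, only Col1a2 was called, the adjusted p of Col1a1 then lying between 0.0566 and 0.143 and that of Col16a1 between 0.0615 and 0.345. Only 1 Gli3FF library was under the Xist limit. Among low-Xist libraries the log2 changes were 0.862 for Col1a1 and 0.785 for Col16a1. Col12a1 had 31.5 and 103 CPM in the 2 Gli3FF libraries, a spread wider than the difference from wild type. Gli3FF replicates 1 and 2 had 17544 and 22143 detected genes, against 21127 to 24483 in wild type. Pseudogenes took 8.91 and 6.79% of their counts outside the ribosomal RNA locus, against 5.76 to 8.7% in wild type. The part of these differences in the calls was not tested. Col3a1 (8157 and 7898 CPM), Col5a1 (391 and 483 CPM) and Col5a2 (446 and 546 CPM) were not called (adjusted p = 0.452, 0.456 and 0.342). The basement membrane chains Col4a6, Col4a5 and Col4a3 and the collagen gene Col15a1 were the 4 of 24 other collagens called, all higher. Col4a5 was at 193 ± 20.6 CPM in Gli3FF and 50.9 ± 6.28 CPM in wild type. Of 34 synthesis and processing genes 1 was higher and 5 lower, and of 20 fibril-binding proteins 4 were higher and 3 lower. Mesothelial markers summed to 81.9 to 129 CPM in Gli3FF and 175 to 459 CPM in wild type, with 4 of 10 lower and 1 at 0 counts. Cholangiocyte markers summed to 10.3 to 22.5 CPM in Gli3FF and 57.3 to 90.7 CPM in wild type (2 of 10 lower, 5 at 0 counts in Gli3FF). Endothelial markers summed to 11.8 to 14.5 CPM in Gli3FF and 69.0 to 96.9 CPM in wild type (2 of 9 tested lower, 6 of 10 at 0 counts in Gli3FF). Smooth muscle and pericyte markers summed to 220 to 254 CPM in Gli3FF and 85.3 to 118 CPM in wild type (1 of 10 higher, 1 at 0 counts in Gli3FF), and the part of these markers was not tested.

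In Gli2FF none of the 10 genes was called by edgeR, where 5.84% of all genes were called, 2.58% higher and 3.26% lower. At an unadjusted p under 0.05 there were 2, where 4882 of all 24383 genes tested were under it. DESeq2 called 1, where it called 2836 of 39351 genes, and limma voom called 2, where it called 5732 of 24383. These counts are thus not set apart from those over all genes. Col5a2 had 604 and 554 CPM in Gli2FF, above the wild type range of 315 to 451 CPM (log2 0.60, SE 0.21, adjusted p = 0.096), and with RLE scaling it was called (log2 0.70, adjusted p = 0.0486). Col1a1 had 2424 and 2893 CPM in Gli2FF, below the wild type range of 3185 to 5123 CPM (log2 -0.56, SE 0.22, adjusted p = 0.157), while Col1a2 had 2971 and 3205 CPM in Gli2FF, inside the wild type range of 2698 to 3955 CPM. Of the wider pathway, 1 of 34 synthesis and processing genes was higher and 6 were lower, led by Pcolce, the prolyl 3-hydroxylase partner Crtap and the crosslinking enzyme Loxl1. Of 20 fibril-binding proteins 1 was higher, Thbs1, and 7 lower, with Bgn at 743 ± 46.8 CPM in Gli2FF and 2451 ± 347 CPM in wild type. The fibroblast markers summed to 14000 to 14900 CPM in Gli2FF and 23000 to 27900 CPM in wild type, with 5 of 10 lower, and their part was not tested. Among 8 tested other fibrillar and FACIT genes, Col24a1 was higher, at 42.9 ± 13.8 CPM in Gli2FF and 3.88 ± 3.17 CPM in wild type.

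In Gli2FFGli3FF 2 genes were lower, Col1a1 and Col14a1, and none higher, where 17.2% of all genes were called, 7.6% higher and 9.56% lower. The median log2 change of the 10 genes was -0.369, against -0.353 over all genes. Col1a1 had 2392, 2484, 2878 and 2609 CPM in Gli2FFGli3FF, against 5123, 3861, 3836, 3541 and 3185 CPM in wild type. All 4 libraries were lower than each wild type library (log2 -0.59, SE 0.18, adjusted p = 0.0242). Col14a1 had 516, 576, 1206 and 1054 CPM in Gli2FFGli3FF, against 1893, 1632, 1667, 1534 and 1288 CPM in wild type (log2 -0.94, SE 0.22, adjusted p = 0.00559). Its 4 libraries formed 2 pairs, both below wild type.

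Col3a1 did not follow Col1a1. It had 6797, 8505, 9023 and 8124 CPM in Gli2FFGli3FF, against 8902, 5222, 7124, 6211 and 4244 CPM in wild type (adjusted p = 0.196). Col5a2 had 495, 602, 460.0 and 495 CPM in Gli2FFGli3FF, against 451, 361, 387, 394 and 315 CPM in wild type, each above all wild type libraries but not called (log2 0.43, SE 0.17, adjusted p = 0.0877). Col5a1 lay at 179 to 250.4 CPM in Gli2FFGli3FF, against 288 to 402 CPM in wild type (log2 -0.60, SE 0.24, adjusted p = 0.0806), and Col5a3 at 25.5 to 31.3 against 22.3 to 93.3 CPM (log2 -1.15, SE 0.49, adjusted p = 0.102). When only these 2 groups entered the fit, Col5a1, Col5a2 and Col5a3 were also called (adjusted p = 0.0164, 0.0369 and 0.0283).

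The Col1a1 call was lost without Gli2FFGli3FF replicate 1, 2 or 3 (adjusted p = 0.122, 0.115 and 0.0673) or wild type replicate 1 (adjusted p = 0.0761), and with the ribosomal RNA share as a covariate (adjusted p = 0.0722). The Col14a1 call was lost without Gli2FFGli3FF replicate 2 (adjusted p = 0.0517). Against wild type 4 and 5 alone both were lost, Col1a1 with log2 -0.38 (adjusted p = 0.271) and Col14a1 with log2 -0.75 (adjusted p = 0.108). Only 1 Gli2FFGli3FF library, replicate 4 at 4.58 CPM, was under the Xist limit of 5 CPM. Among low-Xist libraries the log2 changes were -0.51 for Col1a1 and -0.53 for Col14a1. The ribosomal RNA locus took 38.35 to 50.03% of the counts in Gli2FFGli3FF and 13.41 to 29.37% in wild type. Gli2FFGli3FF libraries had 17508 to 20055 detected genes, against 21127 to 24483 in wild type. Pseudogenes took 10.7 to 11.4% of their counts outside that locus, against 5.76 to 8.7% in wild type. The part of gene detection and pseudogenes in the calls was not tested. Smooth muscle and pericyte markers summed to 201 to 463 CPM in Gli2FFGli3FF and 85.3 to 118 CPM in wild type, with 3 of 10 higher and none at 0 counts. Fibroblast markers summed to 16400 to 23600 CPM in Gli2FFGli3FF and 23000 to 27900 CPM in wild type, with 3 of 10 lower, and the part of both was not tested. Of 34 synthesis and processing genes 4 were higher and 14 lower, among them the chaperone Serpinh1 at 613 ± 152 CPM in Gli2FFGli3FF and 1773 ± 158 CPM in wild type. The collagen-binding integrin gene Itga11 averaged 11.1 ± 4.36 CPM in Gli2FFGli3FF and 89.0 ± 10.1 CPM in wild type. Of 20 fibril-binding proteins 2 were higher and 7 lower, and of 24 other collagens 2 were higher, Col4a5 and Col4a6, and 3 lower.

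In Ctnnb1FF 4 genes were lower than in wild type, Col1a1, Col1a2, Col5a1 and Col12a1, and none higher, where 19.9% of all genes were called, 8.04% higher and 11.9% lower. The median log2 change of the 10 genes was -0.58, close to the -0.612 over all genes tested. Ctnnb1FF libraries had 15892 to 17726 detected genes, against 21127 to 24483 in wild type. Pseudogenes took 11.5 to 12.2% of their counts outside the ribosomal RNA locus, against 5.76 to 8.7% in wild type. The ribosomal RNA locus took 28.02 to 34.39% of their counts, against 13.41 to 29.37% in wild type. The part of gene detection and pseudogenes in the calls was not tested. Col1a2 had 2403, 2153 and 1846 CPM in Ctnnb1FF, against 3955, 3207, 3444, 3071 and 2698 CPM in wild type, with no overlap (log2 -0.62, SE 0.16, adjusted p = 0.00992). Col1a1 had 3098, 2459 and 2412 CPM in Ctnnb1FF, against 3185 to 5123 CPM in wild type (log2 -0.56, SE 0.19, adjusted p = 0.0461). Col5a1 had 233, 159 and 157 CPM in Ctnnb1FF, against 288 to 402 CPM in wild type (log2 -0.85, SE 0.26, adjusted p = 0.0269). Col12a1 had 23.4, 21.2 and 6.80 CPM in Ctnnb1FF, against 29.3 to 51.4 CPM in wild type (log2 -1.20, SE 0.39, adjusted p = 0.0347).

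None of these 4 calls was made without Ctnnb1FF replicate 2 (adjusted p between 0.0679 and 0.26) or replicate 3 (0.156 to 0.267), or with wild type 4 and 5 as the only controls (0.0945 to 0.309). Without Ctnnb1FF replicate 1, Col1a1 (adjusted p = 0.116) and Col1a2 (adjusted p = 0.0583) were lost. Without wild type replicate 1, Col1a1, Col5a1 and Col12a1 were lost (adjusted p = 0.111, 0.0569 and 0.0682), and without wild type replicate 2 or 3, Col1a1 was (adjusted p = 0.0607 and 0.0653). Col1a1 was also lost with RLE scaling (log2 -0.51, adjusted p = 0.0664). Col12a1 was lost with the ribosomal RNA share as a covariate (adjusted p = 0.0875) and with limma voom (adjusted p = 0.0587), and both were lost with only the 2 groups in the fit (adjusted p = 0.0753 for Col1a1 and 0.0536 for Col12a1). Col3a1 had 4437, 3880 and 4207 CPM in Ctnnb1FF, against 4244 to 8902 CPM in wild type (log2 -0.60, SE 0.22, adjusted p = 0.0533), and was called with DESeq2 (adjusted p = 0.0376), limma voom (adjusted p = 0.0341) and without wild type replicate 2 or 5 (adjusted p = 0.044 and 0.0164). Mesothelial markers summed to 66.1 to 246 CPM in Ctnnb1FF and 175 to 459 CPM in wild type, with 3 of 10 lower and none at 0 counts, and their part was not tested. Of 34 synthesis and processing genes 2 were higher and 14 lower, with Loxl1 at 170 ± 48.1 CPM in Ctnnb1FF and 765 ± 171 CPM in wild type. Of 24 other collagens 5 were lower, 4 of them chains of type VI, and of 20 fibril-binding proteins 2 were higher and 4 lower.

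Ratios between genes within a library do not depend on how libraries are scaled. For each of 7 ratios of read counts, groups were compared in the same 8 comparisons by two-sided exact permutation tests of the log2 ratio, 56 tests in all. None had an adjusted p under 0.05, the smallest being 0.0889, and 20 had an unadjusted p under 0.05. In 7 tests, those of ligation, 3 libraries against 3 allow no p below 0.1. Where groups did not overlap or the unadjusted p was under 0.05, the direction of the ratio was kept in every setting run.

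The ratio of Col1a1 to Col1a2 reads, the 2 chains of type I collagen, was 2.59, 1.76 and 2.20 after ligation, against 1.21, 1.18 and 1.18 in uninjured ducts. All ligated libraries were higher, at the smallest possible exact p of 0.1 (adjusted p = 0.181). In the Pdgfra line the ratio was 1.38, 1.36 and 1.43 in SmoM2, against 1.30, 1.20, 1.11, 1.15 and 1.18 in wild type (exact p = 0.0179, adjusted p = 0.1). It was 0.909, 0.775, 0.772 and 0.973 in SmoFF (exact p = 0.00794, adjusted p = 0.0889) and 0.853, 0.855, 1.02 and 0.790 in Gli2FFGli3FF (exact p = 0.00794, adjusted p = 0.0889), in both below every wild type library. Gli2FF had 0.816 and 0.903 (exact p = 0.0476, adjusted p = 0.133). Ctnnb1FF, at 1.25 ± 0.0929, and Gli3FF, at 1.10 ± 0.0354, overlapped wild type at 1.19 ± 0.0712 (SD). The SmoM2 ratio exceeded that of SmoFF by 1.63-fold (exact p = 0.0286, the smallest possible, adjusted p = 0.107).

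The ratio of Col3a1 to Col1a1 has Col1a1 as its denominator, so the 2 ratios are not independent. It was 0.253, 0.491 and 0.419 after ligation, against 1.47, 1.40 and 1.21 in uninjured ducts (exact p = 0.1, the smallest possible). Its highest values were in Gli2FFGli3FF, at 2.84, 3.42, 3.14 and 3.11, against 1.74, 1.35, 1.86, 1.75 and 1.33 in wild type, a 1.96-fold difference (exact p = 0.00794, adjusted p = 0.0889). SmoFF had 1.91 to 2.04, also above wild type (exact p = 0.0238, adjusted p = 0.107). SmoM2 had 1.02, 0.997 and 1.05, below each wild type library (exact p = 0.0357, adjusted p = 0.118). The 2 Gli2FF libraries had 2.15 and 2.26 and the 2 Gli3FF libraries 1.21 and 1.17, on either side of wild type (exact p = 0.0952 for each, adjusted p = 0.181).

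The balance of type V chains differed too. Col5a1 over Col5a2 was 0.957, 1.49 and 1.26 after ligation, against 0.621, 0.664 and 0.767 in uninjured ducts (exact p = 0.1, the smallest possible). In Gli2FFGli3FF it was 0.362, 0.329, 0.544 and 0.485, against 0.777 to 0.938 in wild type (exact p = 0.00794, adjusted p = 0.0889). Ctnnb1FF at 0.550 to 0.617 (exact p = 0.0179, adjusted p = 0.1) and Gli2FF at 0.469 and 0.564 (exact p = 0.0476, adjusted p = 0.133) also lay below wild type. In SmoFF the 4 libraries ran from 0.636 to 1.35, on both sides of wild type. Set against type I, Col5a1 over Col1a1 was 0.0526 ± 0.00769 in SmoM2 (n = 3) and 0.140 ± 0.0371 in SmoFF (n = 4), by the exact permutation test p = 0.0286 and adjusted p = 0.107, with wild type between them at 0.0853 ± 0.0120. After ligation Col5a1 and Col1a1 rose by like factors, and their ratio was 0.0655 ± 0.0216, against 0.0648 ± 0.00372 in uninjured ducts. Col5a3 over Col5a1 was 0.0171, 0.0186 and 0.0357 after ligation, against 0.282, 0.286 and 0.342 in uninjured ducts.

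For the FACIT pair, Col12a1 over Col14a1 was 2.58, 1.73 and 2.25 after ligation, against 0.0280, 0.0246 and 0.0414 in uninjured ducts. In reads the sides of the ratio thus changed places, with Col12a1 reads the more numerous in each ligated library and Col14a1 reads in each uninjured one. The ratio is not corrected for mRNA length, 11511 bases for Col12a1 and 5679 for Col14a1. Per kilobase the 2 genes lay close after ligation, with means of 112.7 and 105.8 CPM. In BDL replicate 2 Col14a1 was the higher, at 122 CPM per kilobase against 104 for Col12a1. In SmoFF the ratio was 0.0115 ± 0.00318, against 0.0244 ± 0.00181 in wild type (exact p = 0.00794, adjusted p = 0.0889), and in Ctnnb1FF it was 0.0181, 0.0167 and 0.00449 (exact p = 0.0179, adjusted p = 0.1). SmoM2 had 0.0326, 0.0623 and 0.0260, overlapping wild type.

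**Figure D3:**
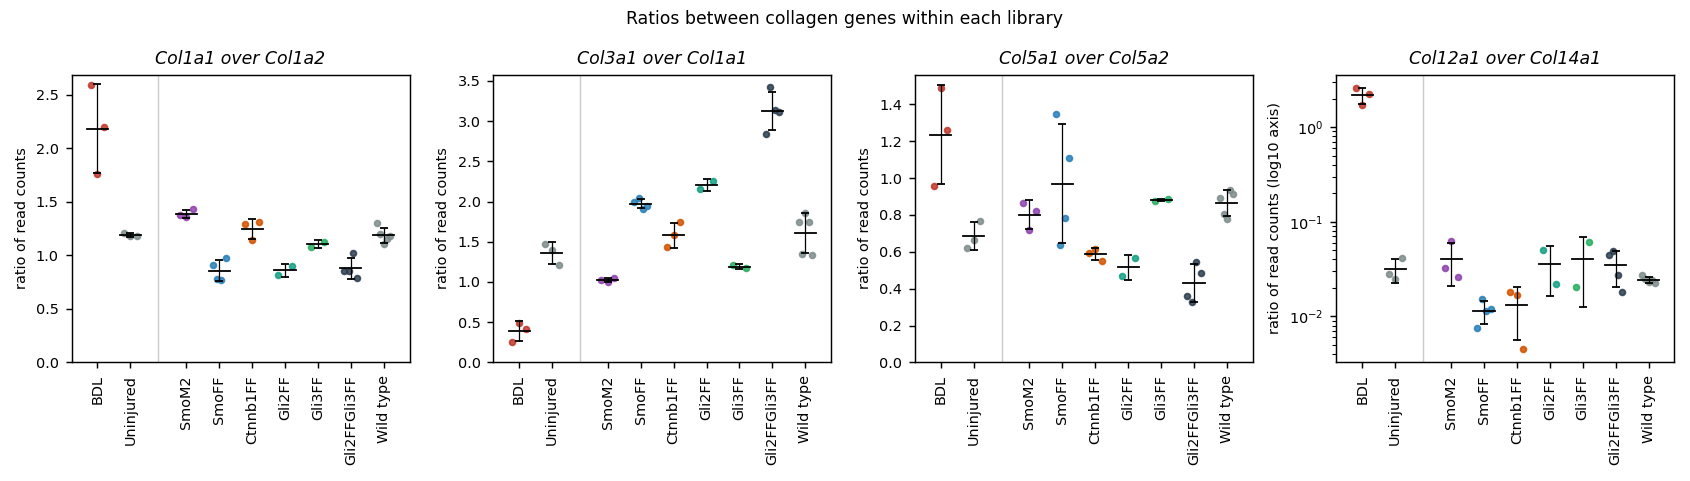
Ratios of read counts, not corrected for mRNA length, between pairs of collagen genes within each library. Points are libraries, horizontal lines group means and bars 1 SD. The axis is log10 for Col12a1 over Col14a1 and linear elsewhere, and the grey line parts the Gli1 line from the Pdgfra line. Col3a1 over Col1a1 lay between 0.253 and 0.491 after ligation and between 2.84 and 3.42 in Gli2FFGli3FF, and Col12a1 over Col14a1 exceeded 1 in the ligated libraries alone.

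Across the 23 Pdgfra libraries some pairs of the 10 genes shared much of their variation and others little. This is given as a description, since libraries of a genotype are not independent of it. Col1a1 and Col1a2 had a Pearson r of 0.942 and a Spearman rho of 0.908 of log2 CPM, and r was 0.89 after group means were removed. Col1a1 and Col3a1 had r = 0.73, or 0.888 within groups. Col11a1, at or near 0 counts in most of these libraries, had r between -0.175 (with Col14a1) and 0.205 (with Col5a2). Col5a2 and Col14a1 had r = 0.123. Among 9010 other genes (mean log2 CPM 3 or more), those most like the mean of the 10 were D630003M21Rik (r = 0.818, rho = 0.804), Col4a2 (r = 0.797, rho = 0.667), Col6a1 (r = 0.764, rho = 0.711), Col6a3 (r = 0.761, rho = 0.722) and Smo (r = 0.76, rho = 0.634). Within groups the value for Smo was 0.143. Most like Col1a1 alone were D630003M21Rik (r = 0.883), Col6a1 (0.867), Snai1 (0.846), Fat4 (0.832) and Mfap4 (0.827), over the same 23 libraries. Within groups these values were 0.551, 0.696, 0.436, 0.481 and, for Mfap4, 0.083.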

How the data were processed

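Gene-level read counts were deposited by the authors as whole numbers, 1 table for each of 8 sets of libraries, on the mm10 build according to the submitters' processing notes. Which aligner, counter, annotation and strand setting the authors used is not given in the sources used here. Libraries were full-length cDNA made by the Smartseq3 protocol with Smartseq2 primers, per the labels' protocols, and carry no molecular identifiers in the tables, so counts are reads and not molecules. Samples were grouped by their titles, and each came from 1 animal.

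Counts were tested with edgeR 4.0.16 (R 4.3.3): filterByExpr, TMM scaling and the quasi-likelihood test, with Benjamini-Hochberg adjustment over all genes tested and a threshold of 0.05. The 6 Gli1 libraries were fitted alone and the 23 Pdgfra libraries together, so that all genotypes share 1 estimate of the spread. Each SE was derived from the quasi-likelihood test, as the size of the log2 change divided by the square root of its F statistic. Every adjusted p of a gene comes from this test unless DESeq2 1.42.0 or limma 3.58.1 (voom) is named. Ratios between genes used counts with 0.5 added and two-sided exact permutation tests, adjusted over all 56. Levels per kilobase used the longest principal transcript of GENCODE M21. The procedure was checked on simulated counts.

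Alternatives were other scaling, other tools, other filters, the replicate number as a block, the compared groups alone, removal of the ribosomal RNA locus or its share as a covariate, wild type 1 to 3 or 4 and 5 alone, libraries with Xist under 5 CPM, and leaving out each library. They were applied to the pathway lists only after the data had been seen. All 10 collagen genes are named, and per list at most 4 called genes with the smallest p. The 10 genes and all lists were chosen with earlier results of these data known. Promoter entries of RefSeq were searched for 4 short motifs on both strands.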

Additional observations from a re-analysis of the deposited data

Results flagged for a closer look

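In groups of 4 or 5 libraries a single value was marked where its gap to the nearest other value took up most of the range of its group (Dixon's test at the 95% level). This marked 6 of 51 groups of values, where chance marks about 1 in 20. For Col1a2, SmoFF replicate 4 had 2200 CPM and the nearest SmoFF library 1540 CPM. For Col16a1, wild type replicate 1 had 103 CPM and the nearest wild type library 67.0 CPM. The other 4 concern Col11a1 at very low counts. SmoFF replicate 4 had 0.156 CPM of Col11a1 from 4 counts, where the other SmoFF libraries had none, and a Col11a1 to Col5a1 ratio of 0.000552. Wild type replicate 5 had 0.811 CPM from 24 counts, where the nearest wild type library had 0.0371 CPM, and a ratio of 0.00287.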

How the results depend on the processing

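The number of the 10 genes called moved by more than 1.5 times in these settings. In Gli2FF (0 called) RLE scaling and DESeq2 called 1 each and limma voom 2. In SmoM2 against wild type (0 called) DESeq2 and the fit with no filter called 1 each and limma voom 3. In Gli2FFGli3FF (2 called) limma voom and the fit with no filter called 4 each, the fit of only the compared groups 5, the ribosomal RNA covariate 1, and wild type 4 and 5 alone 0. In Gli3FF (3 called) the replicate block, wild type 1 to 3, and wild type 4 and 5 gave 1 each. Low-Xist fits of Gli2FF, Gli3FF and Gli2FFGli3FF held 1 library of that group, so their calls are not counted here. In SmoFF (5 called) the compared groups alone gave 3 and wild type 4 and 5 gave 1. In Ctnnb1FF (4 called) these gave 2 and 0. Leaving out 1 library gave 7 to 9 for ligation, 4 to 6 for SmoFF, 0 for SmoM2 and for Gli2FF, 0 to 5 for Ctnnb1FF, 0 to 3 for Gli3FF, 0 to 2 for Gli2FFGli3FF and 4 to 6 for SmoM2 against SmoFF. The cause of these differences was not tested. No chain ratio passed adjustment in any setting, where groups this small leave little room to pass it. No fit of low-Xist libraries could be made for Ctnnb1FF or ligation.

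Same-numbered libraries did not deviate together (correlations of -0.259 to 0.166), so the numbers were not taken as pairs. With the replicate block 8 genes were called for ligation, where Col3a1 had adjusted p = 0.0654, and 5 in SmoFF, 0 in SmoM2, 4 in Ctnnb1FF, 0 in Gli2FF, 2 in Gli2FFGli3FF and 6 in SmoM2 against SmoFF. Of 136 single results of the 10 genes and their ratios, 32 changed sign in some setting, none of them called there and none among the 72 that were called, had an unadjusted p under 0.05 or had groups apart. For all genes, the calls ranged from 377 to 4353 for ligation (2326 as reported), 19 to 1308 for SmoFF (377), 17 to 1456 for SmoM2 (50), 3050 to 7137 for Ctnnb1FF (4852), 179 to 5732 for Gli2FF (1423), 319 to 2624 for Gli3FF (1085), 1019 to 5969 for Gli2FFGli3FF (4183) and 240 to 1713 for SmoM2 against SmoFF (641). Among named pathway genes, 1472 of 1696 alternative values kept the call, 224 lost it and 0 changed sign.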
